A study of Mus musculus with 4 samples.

Results

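The lysosomal gene set described here holds 37 genes that encode lysosomal hydrolases, their activators, membrane proteins of the lysosome and the transcription factors that act on lysosomal genes. They were picked by name among the 36601 genes of the count matrices, with earlier results of these data known, and all 37 were found. Their UMI counts were followed in live human CD45+ cells that had been sorted from tumors of MISTRG mice, a mouse strain that carries human versions of cytokine genes, after humanization with human fetal liver CD34+ cells. The tumors were grown from MDA-MB-231, a human triple-negative breast cancer cell line, in the mammary fat pad. The 7 maraviroc mice drank water with 300 mg/l of maraviroc, a small-molecule drug, starting on day 21 and lasting 10 days, and the 7 untreated mice received none. All 14 mice shared the tumor line, the irradiation before humanization and the harvest on day 31, and the sources used here give neither the age of each mouse nor the donor of its human cells. Single-cell 3′ libraries were made in 2 reactions, with 4 untreated and 3 maraviroc mice in reaction 1 and 3 untreated and 4 maraviroc mice in reaction 2, and hashtag antibodies marked the mice. The treatment was read from the hashtag names, because the sample labels hold no treatment. The labels name the mouse as the organism, although the counted genes are human.

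Lysosomes are acidic compartments in which proteases, lipases, glycosidases and phosphatases break down material from endocytosis, phagocytosis and autophagy. In macrophages they digest engulfed cells, lipoproteins and microbes, and in dendritic cells milder lysosomal proteolysis yields peptides for presentation by MHC class II molecules. Many of these genes are targets of TFEB, TFE3 and MITF, related transcription factors that bind a shared promoter element.

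After hashtag demultiplexing and limits on genes and mitochondrial counts, 19871 cells remained, 11917 in reaction 1 at a median of 3020 UMIs and 7954 in reaction 2 at a median of 9767.5 UMIs. Of 29120 barcodes in reaction 1, 10631 were hashtag doublets and 5754 had no hashtag called. In reaction 2 these were 3144 and 375 of 13582 barcodes. The total per mouse lay between 5996882 and 14963342 UMIs. Cells were put into classes by UMIs of marker genes that include none of the 37 genes, which left 46.98% of the cells of reaction 1 and 7.15% of reaction 2 without a class. The largest classes were macrophages (4592 cells), monocytes (2447 cells) and lymphoid cells, that is T, NK and B cells (4771 cells). Another 968 myeloid cells met neither the macrophage nor the monocyte rule and formed an intermediate class that entered no comparison. Conventional dendritic cells numbered 409, of which 336 were of type 2 (cDC2, gated on CD1C) and 73 of type 1 (cDC1, gated on CLEC9A or XCR1). No mouse had 10 cells of type 1, so that the class mainly shows type 2. Each class was summed per mouse where a mouse had at least 10 of its cells, and levels are given in CPM, UMI counts divided by the total of the summed class and scaled alike in all classes. These 3′ counts have no transcript-length factor, so that levels are compared between classes and not between genes. The macrophage list, led by C1QA, C1QB and C1QC, summed to 6090.3, 8041 and 8776 CPM (lowest, median and highest of 14 mice) in macrophages and 1162, 1370.2 and 1845 CPM in monocytes, and the monocyte list, led by S100A8 and S100A9, to 1280.0, 2122 and 2880.1 and 16212, 18198 and 22853 CPM. The matrices of both reactions shared 136 cell barcodes, and the results without these barcodes are among the alternatives.

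By the median over mice, the lysosomal genes took the largest share of the transcriptome in macrophages and the smallest in lymphocytes. Summed over the 37 genes, the level was 12295, 13573 and 14736 CPM in macrophages (lowest, median and highest of 14 mice) and 9209.7, 10394 and 11168 CPM in monocytes. These ranges did not overlap, with the intermediate cells left out of both classes. Conventional dendritic cells followed at 6257, 7854 and 9146 CPM in 13 mice and mast cells at 5704, 6493 and 7907 CPM in 7 mice, and these classes overlapped. Plasmacytoid dendritic cells (8 mice) at 4581, 4985 and 5518 CPM and mature dendritic cells (6 mice) at 4128, 4973 and 7828 CPM also overlapped each other. B cells (7 mice) had 1628, 2292 and 4168 CPM, T cells (12 mice) 1615, 2077 and 2453 CPM and NK cells (14 mice) 1983, 2093 and 2489 CPM, with overlap among these 3 classes.

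**Figure D1:**
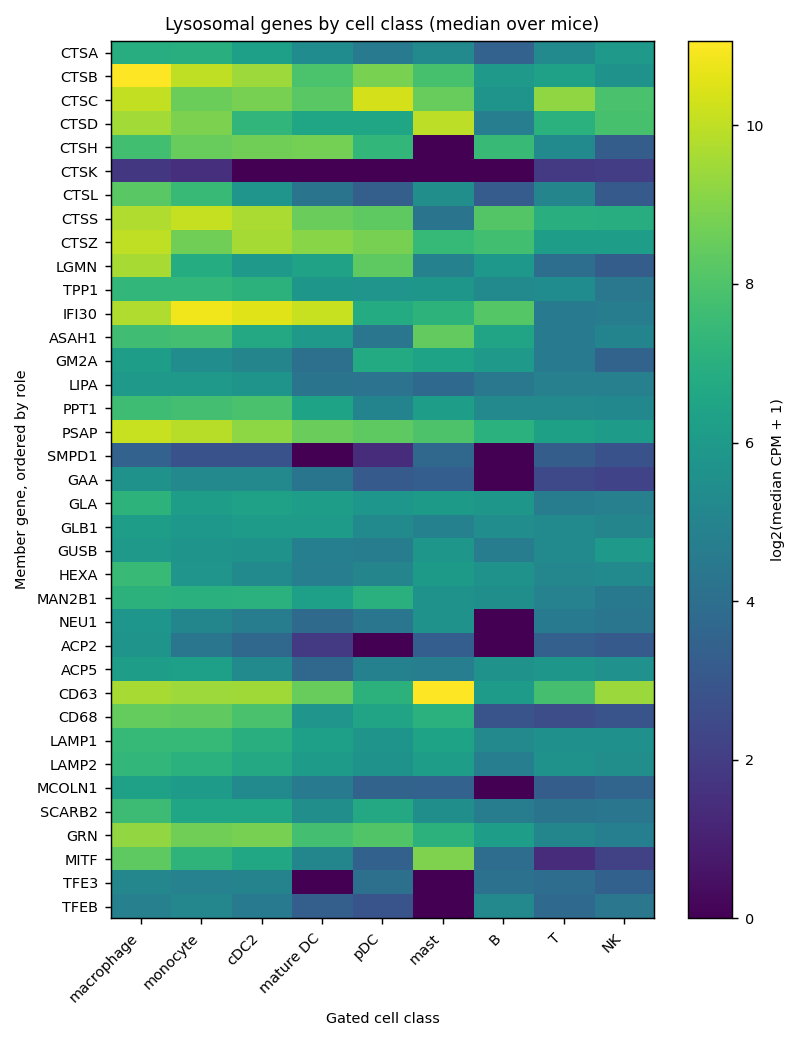
Heatmap of the level of each of the 37 lysosomal genes (rows, ordered by role from proteases to transcription factors) in 9 gated cell classes (columns), as log2 of the median CPM over mice plus 1. Macrophages are the brightest column for LGMN, CTSB and CTSL, and monocytes for IFI30. CD63, CTSD and MITF are bright in mast cells, CTSC in plasmacytoid dendritic cells and CTSH in mature dendritic cells. The lymphocyte columns are darker for most genes, although CD63 in NK cells and CTSC in T cells are bright.

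Macrophages had more of 19 lysosomal transcripts than monocytes of the same mouse, led by LGMN, and less of 7, led by IFI30 and CTSH. Of the 36 genes tested, 19 were higher in macrophages and 7 lower in edgeR's quasi-likelihood test with Benjamini-Hochberg adjustment (14 mice), where 34.4% of all genes tested were higher and 32% lower. The median log2 difference of the 36 genes was 0.16, and that of all genes tested was 0.02. LGMN (ENSG00000100600), which encodes legumain, an asparaginyl endopeptidase that also activates cathepsins, lay at 556, 776 and 1024 CPM in macrophages and 70.7, 113 and 130.2 CPM in monocytes. The ranges were far apart, and the log2 difference was 2.79 ± 0.07 (adjusted p = 5.52e-19). HEXA, the alpha subunit of beta-hexosaminidase, which removes hexosamine from gangliosides, lay at 110.0, 183 and 234 CPM against 45.2, 54.2 and 78.01 CPM. Macrophages were higher in 14 of 14 mice without overlap, at a log2 difference of 1.54 ± 0.09 (adjusted p = 5.27e-13).

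Among the cathepsins, CTSC, the dipeptidyl peptidase that activates granule serine proteases, lay at 838, 1067 and 1294 CPM in macrophages and 341, 379.8 and 463 CPM in monocytes, a log2 difference of 1.34 ± 0.06 (adjusted p = 6.79e-15). CTSZ, a carboxypeptidase, lay at 932, 1041 and 1186 CPM and 356, 409.6 and 512 CPM, a log2 difference of 1.29 ± 0.05 (adjusted p = 3.10e-16). Neither gene overlapped between the classes. The endopeptidase genes CTSB, CTSL and CTSD were also higher in macrophages, at log2 differences of 0.93 ± 0.05, 0.68 ± 0.09 and 0.66 ± 0.07, with CTSB at 1722, 2119 and 2274 CPM in macrophages and 873, 1014 and 1265 CPM in monocytes. The acid phosphatase gene ACP2 lay at 34.6, 52.1 and 62.8 CPM against 8.21, 19.2 and 30.3 CPM, a log2 difference of 1.29 ± 0.08 (adjusted p = 1.22e-12).

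The genes that were lower in macrophages were IFI30, CTSH, CTSS, PPT1, ASAH1, CTSA and TFEB. IFI30 (ENSG00000216490), the interferon-inducible thiol reductase that opens disulfide bonds of antigens, lay at 627, 862 and 1129 CPM in macrophages and 1616, 1844 and 2078 CPM in monocytes. All monocyte values were above all macrophage values, and the log2 difference was -1.20 ± 0.06 (adjusted p = 7.87e-14). CTSH, an aminopeptidase, lay at 141, 209 and 248 CPM against 309, 358 and 433 CPM with no overlap, a log2 difference of -0.92 ± 0.06 (adjusted p = 9.05e-13). CTSS, the protease that trims the invariant chain of MHC class II, was lower by less, at a log2 difference of -0.40 ± 0.05 (adjusted p = 3.80e-07), and the classes overlapped. PPT1, which removes palmitate from proteins, ASAH1, the acid ceramidase, and CTSA, the protective protein of NEU1 and GLB1, were lower by log2 differences of -0.31 ± 0.05, -0.22 ± 0.06 and -0.15 ± 0.05.

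Of the 13 genes of lipid and sugar breakdown, 7 were higher in macrophages, 2 were lower (PPT1 and ASAH1, above) and 4 did not pass, and HEXA was the first of the 7. GLA, the alpha-galactosidase, and GM2A, the ganglioside activator, had log2 differences of 0.88 ± 0.07 and 0.74 ± 0.07, NEU1, the sialidase, 0.72 ± 0.09, SMPD1, the acid sphingomyelinase, 0.67 ± 0.14, GAA, which degrades glycogen, 0.35 ± 0.07, and PSAP, the saposin precursor, 0.16 ± 0.05. LIPA, which hydrolyzes cholesteryl esters, GLB1, GUSB and MAN2B1, which remove galactose, glucuronate and mannose, the tripeptidase gene TPP1 and the phosphatase gene ACP5 did not pass the threshold. Among the membrane proteins, SCARB2, the receptor that carries glucocerebrosidase to lysosomes, lay at 159.6, 194 and 229.9 CPM in macrophages and 70.4, 93.4 and 119.8 CPM in monocytes, a log2 difference of 0.98 ± 0.05 (adjusted p = 1.05e-13). LAMP2 and the calcium channel gene MCOLN1 were higher at log2 differences of 0.19 ± 0.05 and 0.17 ± 0.07, while LAMP1, CD63 and CD68 did not pass. GRN, the granulin precursor, was higher at a log2 difference of 0.54 ± 0.05.

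The 3 transcription factor genes did not move together. MITF lay at 252, 315 and 376 CPM in macrophages and 92.1, 145 and 244 CPM in monocytes, without overlap and with a log2 difference of 0.99 ± 0.10 (adjusted p = 9.52e-09). TFEB lay at 22.8, 27.6 and 33.5 CPM and 25.8, 34.2 and 47.1 CPM, lower in the macrophages of 13 of 14 mice, at a log2 difference of -0.40 ± 0.07 (adjusted p = 6.16e-05). TFE3 lay at 27.1, 33.7 and 39.9 CPM and 21.9, 29.2 and 41.5 CPM, a log2 difference of 0.05 ± 0.07 (adjusted p = 0.527). Fitted by reaction, the comparison called 18 genes higher and 5 lower in reaction 1 and 19 higher and 6 lower in reaction 2, and 21 of the 26 called genes were called in both. The call of CTSA was lost in both reactions, without the low-count filter and with library totals in place of TMM factors, and that of MCOLN1 in reaction 1, with DESeq2, with the stricter gate and without the shared barcodes.

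Against conventional dendritic cells the macrophages were higher for a larger part of the set. In 13 mice, 26 of 36 genes tested were higher in macrophages and 3 lower (edgeR's quasi-likelihood test, Benjamini-Hochberg adjustment), beside 26.9% and 24.6% of all genes tested. The median log2 difference was 0.72 for the lysosomal genes and 0.04 for all genes. The aspartyl protease gene CTSD lay at 639, 701 and 1007 CPM in macrophages and 89.9, 124 and 312 CPM in dendritic cells, a log2 difference of 2.25 ± 0.12 (adjusted p = 1.68e-12), with no overlap. The cysteine protease gene CTSL lay at 205, 298 and 497 CPM against 15.1, 49.99 and 208 CPM, a log2 difference of 2.30 ± 0.18 (adjusted p = 5.00e-10), where the highest dendritic cell value was just above the lowest macrophage value. LGMN lay at 556, 756 and 1024 CPM against 36.8, 65.2 and 175 CPM and differed by 3.13 ± 0.13 (adjusted p = 1.75e-14) on the log2 scale.

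HEXA, at 149.8, 187 and 234 CPM in macrophages and 18.1, 36.6 and 67.4 CPM in conventional dendritic cells, differed by 2.23 ± 0.12 (adjusted p = 5.40e-13) on the log2 scale. ACP2 lay at 43.8, 52.1 and 62.8 CPM against 4.73, 10.8 and 40.7 CPM, a log2 difference of 1.95 ± 0.16 (adjusted p = 1.13e-09). MITF lay at 252, 315 and 376 CPM against 21.5, 76.2 and 194 CPM, a log2 difference of 1.69 ± 0.17 (adjusted p = 2.47e-08). Macrophages were higher in every mouse for these 3 genes. The lower genes were CTSH, IFI30 and PPT1, at log2 differences of -0.79 ± 0.09, -0.61 ± 0.09 and -0.50 ± 0.08, all of which were also lower in macrophages than in monocytes. CTSS went the other way than against monocytes, at a log2 difference of 0.21 ± 0.07 (adjusted p = 0.0195) in favor of macrophages, a call that was made neither in either reaction by itself nor with the stricter gate. TFEB and TFE3 did not pass, with log2 differences of 0.27 ± 0.13 and 0.25 ± 0.15. Dendritic cells held macrophage-list transcripts at 1108, 1537 and 2502 CPM. SPP1, a macrophage transcript outside the marker lists, lay at 64.5, 347 and 3531 CPM against 5497, 11899 and 18074 CPM in macrophages. The monocyte list lay at 2109, 5982 and 7991 CPM in dendritic cells against 1280, 2145 and 2880 CPM in macrophages. The part of all these transcripts in the levels was not tested. Of the 29 called genes, 22 were called in both reactions.

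**Figure D2:**
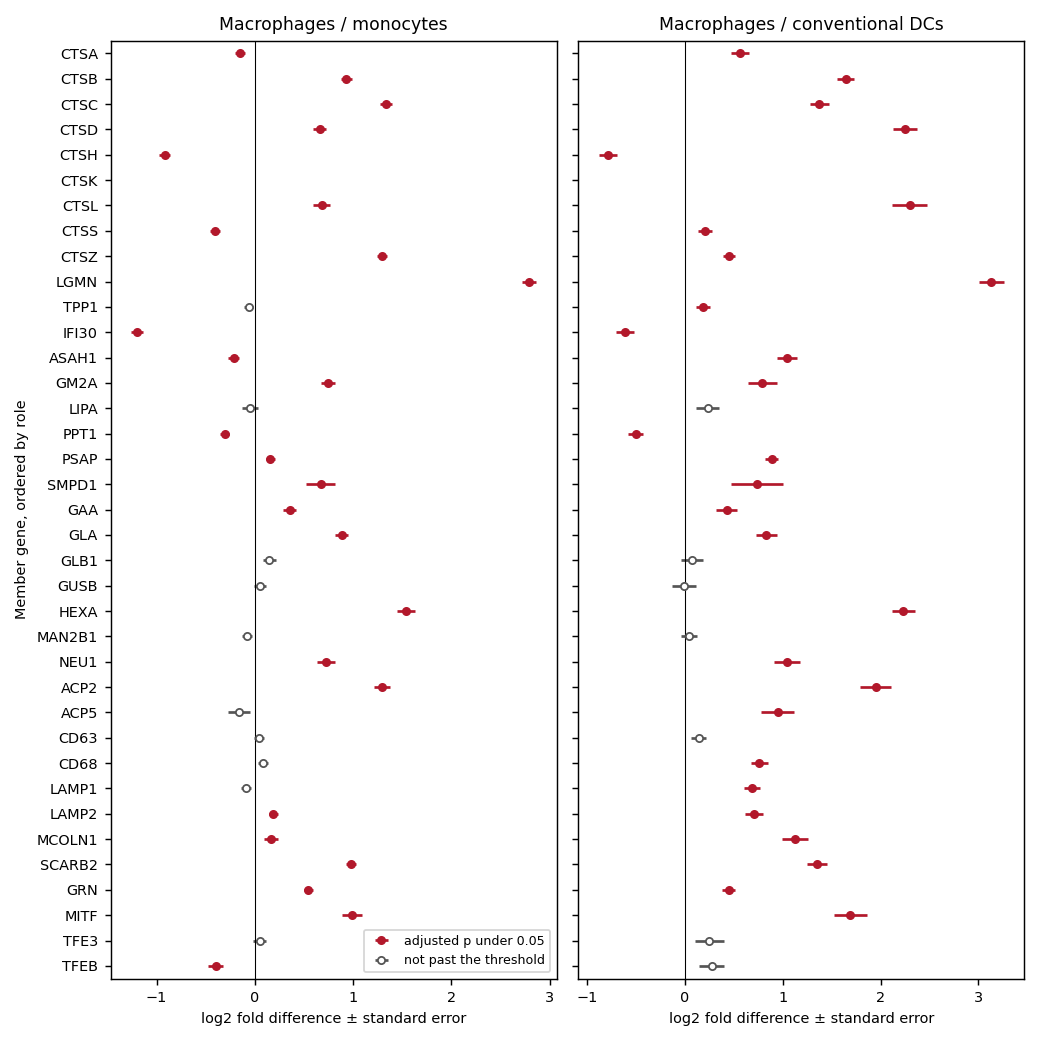
Log2 fold difference of each lysosomal gene between macrophages and monocytes of 14 mice (left) and between macrophages and conventional dendritic cells of 13 mice (right), with points for edgeR estimates, bars for standard errors and red points for adjusted p under 0.05. LGMN stands farthest to the right in both panels, IFI30 and CTSH stand left of zero in both, and CTSK has no point because it did not pass the low-count filter.

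In lymphoid cells most of the set was at a lower level than in macrophages. All 36 genes tested were higher in macrophages (edgeR's quasi-likelihood test, 14 mice), beside 40.6% of all genes tested, with a median log2 difference of 2.69 against -0.02 over all genes. MITF lay at 252, 315 and 376 CPM in macrophages and 1.73, 3.08 and 7.03 CPM in lymphoid cells, a log2 difference of 6.80 ± 0.12 (adjusted p = 7.01e-20). LGMN lay at 556, 776 and 1024 CPM against 4.09, 12.6 and 28.1 CPM, and CD68, a glycoprotein of the macrophage lysosome membrane, at 308, 352 and 474 CPM against 3.58, 6.55 and 17.2 CPM. The log2 differences were 6.13 ± 0.17 (adjusted p = 1.54e-17) and 5.93 ± 0.10 (adjusted p = 3.19e-20). CTSB, IFI30 and GRN were higher by 5.25 ± 0.11, 5.03 ± 0.10 and 4.60 ± 0.07 on the log2 scale, with lymphoid levels of 32.7, 67.3 and 105 CPM, 17.01, 29.5 and 57.3 CPM and 23.7, 31.6 and 42.2 CPM.

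Transcripts of macrophage genes were also found at low levels in lymphocytes. SPP1 was found in T and NK cells at between 1.13% and 2.22% of its macrophage level over both reactions. C1QA was at between 1.01% and 1.81% and C1QC at between 0.849% and 1.44%. Both of these genes are in the macrophage list, and the gate for T and NK cells itself limits UMIs of that list. APOC1 and FN1, both low in macrophages, were at between 2.26% and 5.54% and between 7.59% and 27.96%. CD68 at between 1.43% and 2.19%, LGMN at between 1.05% and 1.77% and MITF at between 0.414% and 1.73% were near the range of SPP1. In T cells of reaction 2, however, CD68 at 1.96% and LGMN at 1.77% lay above SPP1 at 1.14%. In T cells of reaction 1, CD68 at 1.45% and LGMN at 1.70% also lay above SPP1 at 1.36%. In NK cells CD68 lay above SPP1 in reaction 2 (1.43% against 1.13%) but not in reaction 1 (2.19% against 2.22%). LGMN lay below SPP1 in NK cells of both reactions. The part of free RNA in these lymphoid levels was not tested. Other members took a larger share of their macrophage level in lymphocytes. In T cells of reactions 1 and 2, ACP5 was at 81.6% and 88.8% of its macrophage level and SMPD1, a low gene, at 88.1% and 77.5%. CD63, a tetraspanin of secretory lysosomes, lay at 598, 677 and 877 CPM in NK cells of 14 mice and 133, 219 and 359 CPM in T cells of 12 mice, beside 569.8, 790.0 and 961 CPM in macrophages. CTSC was at 375, 604 and 786 CPM in T cells and 201, 235 and 305 CPM in NK cells, and CTSD at 83.8, 131 and 184 and 179, 228 and 328 CPM. GUSB, at 46.4, 60.7 and 124 CPM in NK cells, overlapped with macrophages at 50.9, 60.3 and 66.4 CPM, and its call was lost in reaction 1 and with library totals in place of TMM factors. TFEB and TFE3 were lower in the pooled lymphoid cells, at log2 differences of 0.99 ± 0.09 and 1.75 ± 0.09 for macrophages over lymphoid cells. In B cells TFEB was instead above its macrophage level, at 128.4% in reaction 1 and 128.8% in reaction 2, from few UMIs. There TFE3 was at 39.7% and 50.8% of its macrophage level, CTSH at 86.9% and 91.0% and GM2A at 85.5% and 82.7%.

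Mature dendritic cells were gated on LAMP3 together with other markers such as CCR7. LAMP3 is itself a lysosome-related gene outside the 37 genes, so that the gate selected for it. These cells had less of 9 lysosomal transcripts of the set than the other conventional dendritic cells of the same mice. Of 26 genes tested in 6 mice, 9 were lower and 0 higher (edgeR's quasi-likelihood test, Benjamini-Hochberg adjustment), beside 12.6% lower and 14.9% higher among all genes tested. Their median log2 difference was -0.52, and -0.07 over all genes. CD68 lay at 0, 54.2 and 147 CPM in mature and 163, 204 and 299.8 CPM in other dendritic cells, a log2 difference of -1.72 ± 0.37 (adjusted p = 0.00503). PPT1 lay at 36.9, 85.1 and 165 CPM against 223, 252 and 309.9 CPM, a log2 difference of -1.45 ± 0.26 (adjusted p = 0.00178). CTSB lay at 68.8, 241 and 320.4 CPM against 479.8, 567.9 and 890.4 CPM, a log2 difference of -1.27 ± 0.22 (adjusted p = 0.00173). For these 3 genes every mature value was below every other value. Transcripts of other cell types differed as well. The macrophage list lay at 123, 365 and 779 CPM in mature against 1108, 1413 and 1969 CPM in other dendritic cells. The monocyte list lay at 1148, 1381 and 5723 against 5102, 6161 and 7991 CPM. SPP1 lay at 74.3, 307 and 8200 against 136, 423 and 1229 CPM, with its highest value in mature cells. The part of all these transcripts in the differences was not tested.

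LIPA, at 12.95, 18.4 and 34.6 CPM against 35.2, 51.1 and 69.9 CPM, also did not overlap and differed by -1.09 ± 0.30 (adjusted p = 0.0171) on the log2 scale. TPP1 and CTSS were lower by log2 differences of -0.84 ± 0.25 and -0.84 ± 0.22, with mature levels of 38.9, 56.7 and 156 and 169, 368 and 727 CPM beside 121, 135 and 149.9 and 656, 718 and 812 CPM, and CD63, GRN and PSAP made up the 9. CTSH at 0.50 ± 0.23, IFI30 at 0.08 ± 0.18 and CTSC at 0.01 ± 0.18 on the log2 scale did not pass, with IFI30 at 867, 1121 and 1602 CPM in mature cells. MITF was at 0, 32.7 and 74.3 CPM against 21.5, 95.95 and 194 CPM, a log2 difference of -1.21 ± 0.48 (adjusted p = 0.0779). The gate rested on few cells (110 in all), 4 genes were called without cells that carried markers of a second class, and 5 were called without maraviroc mouse 3 of reaction 1 or without untreated mouse 1 of reaction 2. TPP1 and PSAP each lost their call in 5 of 6 fits that left out a mouse and CD63 in 4 of 6, and LIPA lost it with DESeq2 and with the stricter gate.

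The rarer classes carried lysosomal patterns of their own, given as levels without a test. Mast cells (7 mice), which store proteases in granules related to lysosomes, held CD63 at 1191, 2142 and 2531 CPM, CTSD at 595, 996 and 1735 CPM, MITF, a regulator of mast cell development, at 119, 488 and 862 CPM and ASAH1 at 129, 342 and 569 CPM. For CD63 the mast cell range lay above the macrophage range. CTSS lay at 0, 18.1 and 172 CPM in mast cells, below the whole macrophage range. CTSH lay at 0, 0 and 151 CPM, where only the highest mouse reached the macrophage range. Plasmacytoid dendritic cells (8 mice) held CTSC at 799, 1304 and 1603 CPM, LGMN at 147, 319 and 369.9 CPM and GM2A at 72.3, 108 and 179.7 CPM. CTSB was at 273, 457 and 629 CPM in these cells and MITF at 2.86, 9.81 and 36.2 CPM. B cells (7 mice) held CTSH at 117, 173 and 206 CPM, IFI30 at 121, 278 and 369 CPM and CTSS at 209.6, 278 and 465 CPM.

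Of the tumor cells that came with the sorted fraction, 86 passed their gate, and only 2 mice had at least 10 of them, so that they are given per reaction with intervals that cover counting error only. CTSD lay at 872 (95% exact Poisson interval 779 to 974, 316 UMIs) in reaction 1 and 376 (95% exact Poisson interval 332 to 425, 255 UMIs) in reaction 2, in CPM. The intervals did not overlap between the reactions. CD63 lay at 834 (95% exact Poisson interval 742 to 933, 302 UMIs) and 741 (95% exact Poisson interval 677 to 809, 502 UMIs), with overlapping intervals. CTSL lay at 188 (95% exact Poisson interval 146 to 238, 68 UMIs) and 114 (95% exact Poisson interval 89.7 to 142, 77 UMIs), and LGMN at 27.6 (95% exact Poisson interval 13.2 to 50.8, 10 UMIs) and 28.04 (95% exact Poisson interval 16.9 to 43.8, 19 UMIs). The summed level of the 37 genes in tumor cells was 4336 (95% exact Poisson interval 4124 to 4556, 1571 UMIs) CPM in reaction 1 and 3341 (95% exact Poisson interval 3205 to 3482, 2264 UMIs) CPM in reaction 2, below the macrophage level.

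Macrophages were then divided by a few marker genes each into states that may share cells. The thresholds were 5 UMIs for the MT1G and CXCL10 states, 3 for IL1A or CCL20 and 2 for the other states. Each state was compared within mice with macrophages below the threshold of every state (1746 cells). These reference cells are called C1Q macrophages without state markers, although they may hold state-marker UMIs under the thresholds and their gate did not require C1Q. All 7 comparisons share these cells, so that their values stand side by side and not as independent evidence. Gates that ask for UMIs of a marker also pick deeper cells: the median depth was 3479 UMIs in reaction 1 and 11144.5 in reaction 2 without state markers, 10569 UMIs in reaction 1 and 14113 in reaction 2 for LYVE1 macrophages, 11131 UMIs in reaction 1 and 13061 in reaction 2 for GLUT1 macrophages and 6330 UMIs in reaction 1 and 16216 in reaction 2 for cycling macrophages, and its part in the differences was not tested. With cells above 1000 detected genes only, the number of called genes stayed within 1.5 times of the number with all cells in each of the 7 comparisons. This limit does not make the depths of the groups alike, so that it is no test of depth.

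LYVE1 macrophages, named for a hyaluronan receptor of tissue-resident macrophages, had the highest median summed level among the states, at 18167, 21391, 14837, 17156 and 14786 CPM in the 5 mice with enough cells, in the order untreated mice 2 and 3 of reaction 1, untreated mouse 3 of reaction 2 and maraviroc mice 2 and 4 of reaction 2, which holds for the lists that follow. C1Q macrophages without state markers were at 12309, 14326, 13471, 12707 and 12672 CPM. Of 35 genes tested, 7 were higher and 5 lower (edgeR's quasi-likelihood test, Benjamini-Hochberg adjustment), beside 6.91% and 6.81% of all genes. Their median log2 difference was 0.14, and -0.01 over all genes. CTSL (ENSG00000135047) was at 1132, 1989, 559, 1051 and 555 CPM in LYVE1 macrophages and 234, 377, 282, 306 and 186 CPM in the others. The groups did not overlap, and the log2 difference was 1.86 ± 0.19 (adjusted p = 1.78e-05).

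LGMN was at 2334, 1575, 1802, 2097 and 1545 CPM in LYVE1 macrophages and 576, 622, 873, 652 and 592 CPM in C1Q macrophages without state markers, a log2 difference of 1.55 ± 0.15 (adjusted p = 1.01e-05). LAMP1, a main glycoprotein of the lysosome membrane, was at 413, 418, 273, 348 and 350.3 CPM against 146, 183, 157, 172 and 168 CPM, a log2 difference of 1.16 ± 0.14 (adjusted p = 1.01e-04). CTSZ was at 2808, 2451, 1688, 1876 and 1616 CPM against 883, 1139, 914, 927 and 932 CPM and differed by 1.14 ± 0.14 (adjusted p = 7.45e-05) on the log2 scale. For each of these genes all 5 LYVE1 values were above all other values. CTSC was at 2061, 2103, 1437, 2662 and 1640.2 CPM against 798, 1023, 995, 973 and 943 CPM, a log2 difference of 1.09 ± 0.15 (adjusted p = 1.96e-04), and NEU1 at 146, 96.8, 71.7, 139 and 82.3 CPM against 42.1, 60.1, 52.03, 50.1 and 51.4 CPM, a log2 difference of 1.07 ± 0.21 (adjusted p = 0.00339). Both were without overlap, and MCOLN1 was the last higher gene, at a log2 difference of 0.83 ± 0.19. All 7 higher genes were called in each fit that left out a mouse.

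The lower genes in LYVE1 macrophages were CTSA, PPT1, ACP5, IFI30 and PSAP, at log2 differences of -0.97 ± 0.19, -0.90 ± 0.19, -0.81 ± 0.24, -0.57 ± 0.14 and -0.41 ± 0.13. CTSA was at 51.7, 44.01, 59.8, 66.99 and 50.4 CPM against 121, 115, 118, 102 and 115 CPM and PPT1 at 65.7, 110.0, 136, 97.3 and 125 CPM against 239, 216, 201, 205 and 187 CPM, both without overlap. The call of PSAP was lost in each of the 5 fits without a mouse, that of ACP5 in 4 and that of IFI30 in those without maraviroc mouse 2 or untreated mouse 3 of reaction 2. TFEB was at 18.8, 0, 19.1, 20.7 and 15.9 CPM against 24.4, 30.6, 39.8, 31.4 and 41.3 CPM, a log2 difference of -1.04 ± 0.35 (adjusted p = 0.067), while MITF and TFE3 differed by -0.15 ± 0.14 and 0.24 ± 0.24. CTSK, the collagen-degrading cathepsin, passed the low-count filter in none of the 11 class comparisons, with a median of 2.49 CPM in macrophages. In LYVE1 macrophages CTSK was at 28.2, 13.2, 11.95, 12.8 and 2.65 CPM, from 8 or fewer UMIs in a mouse, against 2.22, 2.11, 1.17, 3.93 and 2.76 CPM, and the fit without that filter gave a log2 difference of 2.23 ± 0.64 (adjusted p = 0.00612).

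**Figure D3:**
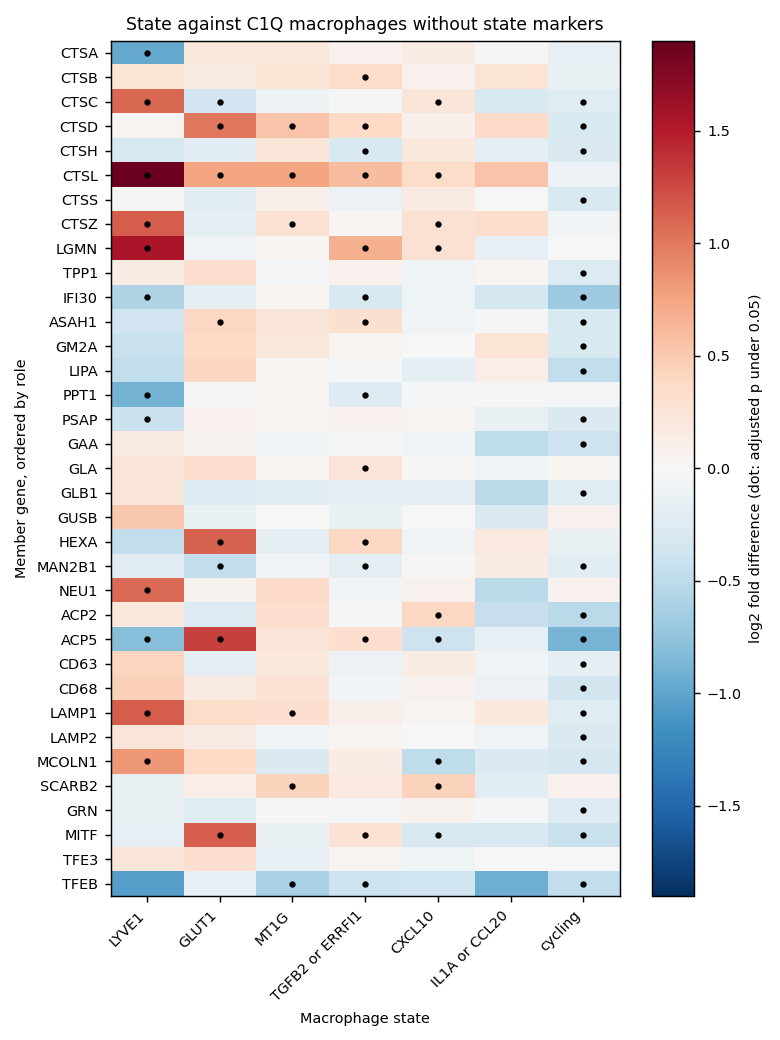
Heatmap of edgeR log2 fold differences of 35 lysosomal genes (rows, ordered by role) for 7 macrophage states (columns) over C1Q macrophages without state markers of the same mice, with red for higher, blue for lower and a dot for adjusted p under 0.05. CTSL is dotted in 5 of the 7 columns and always red there, the cycling column holds 23 dots, all blue, and the column for IL1A or CCL20 holds none.

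GLUT1 macrophages, gated on SLC2A1, the glucose transporter induced by hypoxia, had more ACP5, MITF, HEXA and CTSD transcripts. In 9 mice 6 of 35 genes tested were higher and 2 lower (edgeR's quasi-likelihood test, Benjamini-Hochberg adjustment), beside 9.77% and 5.81% of all genes, and the median log2 difference was 0.12 against -0.05 over all genes. ACP5, the tartrate-resistant phosphatase, lay at 61.3, 192 and 254 CPM (lowest, median and highest) in GLUT1 macrophages and 52.6, 82.01 and 94.6 CPM without state markers, a log2 difference of 1.30 ± 0.17 (adjusted p = 2.53e-05). MITF lay at 327, 688 and 1027 CPM against 272, 303 and 362 CPM, a log2 difference of 1.14 ± 0.15 (adjusted p = 2.74e-05). For both, 8 of 9 mice were higher and the ranges overlapped.

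HEXA lay at 225, 334 and 417 CPM in GLUT1 macrophages against 98.6, 175 and 217 CPM, without overlap and at a log2 difference of 1.12 ± 0.13 (adjusted p = 4.74e-06). CTSD lay at 898, 1499 and 2086 CPM against 522, 835 and 1023 CPM, higher in 9 of 9 mice, at a log2 difference of 0.999 ± 0.13 (adjusted p = 1.25e-05). ACP5, MITF, HEXA and CTSD were the 4 genes called in both reactions by themselves. CTSL, at 190.1, 508 and 866 CPM against 186, 261 and 386 CPM, differed by 0.75 ± 0.20 (adjusted p = 0.0153) on the log2 scale and was higher in 6 of 9 mice, and ASAH1 differed by 0.39 ± 0.12. MAN2B1 was lower, at 51.8, 100.1 and 129 CPM against 116, 141 and 170.3 CPM with a log2 difference of -0.47 ± 0.16 (adjusted p = 0.0445), and so was CTSC at -0.36 ± 0.11. Both calls were lost with cells above 1000 genes, with the stricter gate and in each reaction, that of MAN2B1 also with DESeq2 and that of CTSC without the block. TFEB and TFE3 differed by -0.15 ± 0.24 and 0.31 ± 0.25 and did not pass. With library totals in place of TMM factors 5 genes were higher and 4 lower, and DESeq2 called 6 higher and 1 lower. SPP1 moved with this state, at 8438, 27925 and 36261 CPM against 4284, 14448 and 20492 CPM, and the macrophage list stood at 4491, 5932 and 8222 CPM against 6509.9, 7754 and 9796 CPM.

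**Figure D4:**
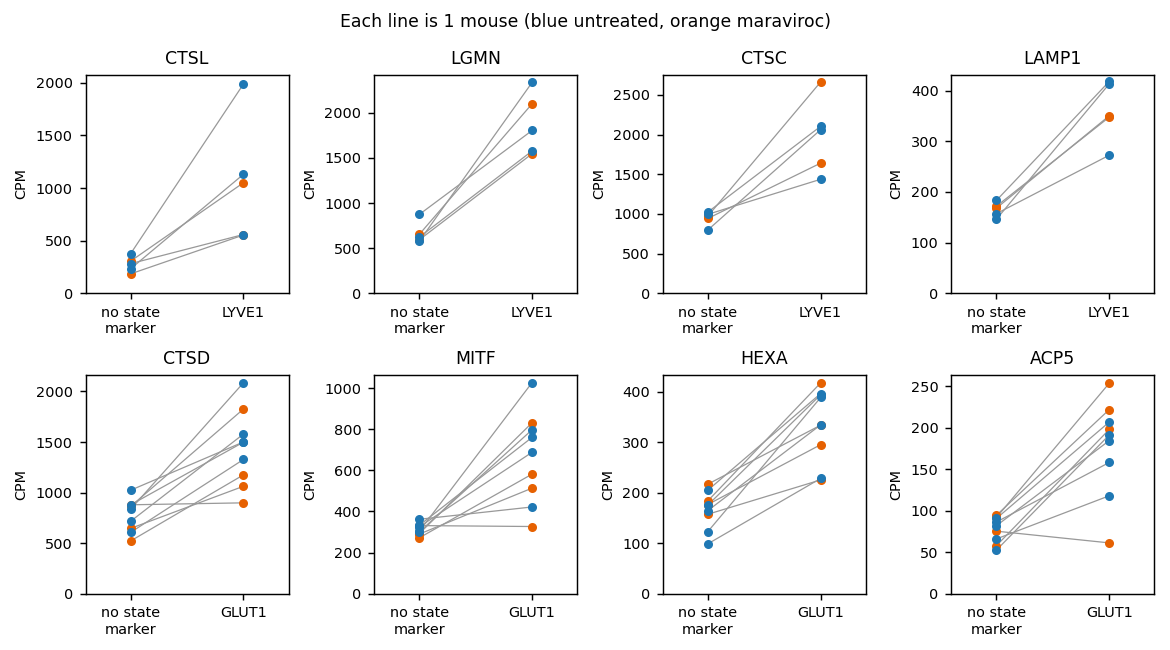
Levels in CPM of 4 genes in LYVE1 macrophages (top, 5 mice) and 4 genes in GLUT1 macrophages (bottom, 9 mice), each joined by a line to the level in C1Q macrophages without state markers of the same mouse, with untreated mice in blue and maraviroc mice in orange. All lines rise for CTSL, LGMN, CTSC and LAMP1 in LYVE1 macrophages and for CTSD and HEXA in GLUT1 macrophages, and 8 of 9 rise for MITF and ACP5.

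MT1G macrophages, gated on the zinc-binding metallothioneins MT1G, MT1H and MT1M, had 5 of 35 genes higher and 1 lower in 13 mice (edgeR's quasi-likelihood test, Benjamini-Hochberg adjustment), beside 4.75% and 3.92% of all genes. Their median log2 difference was 0.05, and 0.00 over all genes. CTSL lay at 169, 405 and 605 CPM in MT1G macrophages and 146, 242 and 386 CPM without state markers, a log2 difference of 0.74 ± 0.13 (adjusted p = 7.61e-04). TFEB was lower, at 11.004, 20.4 and 34.96 CPM against 24.4, 35.2 and 48.5 CPM and a log2 difference of -0.62 ± 0.16 (adjusted p = 0.0156), in 12 of 13 mice. CTSD lay at 352, 959 and 1475 CPM against 417, 712 and 879 CPM and differed by 0.54 ± 0.13 (adjusted p = 0.0101) on the log2 scale. All 3 overlapped between the groups. SCARB2 at 153, 251 and 341 CPM against 132, 179.7 and 216 CPM, LAMP1 at 125, 205 and 275 against 138, 168 and 178 CPM and CTSZ at 743, 1169.6 and 1592 against 883, 959.9 and 1159 CPM differed by 0.43 ± 0.09, 0.32 ± 0.09 and 0.29 ± 0.09 on the log2 scale. MITF and TFE3 differed by -0.13 ± 0.10 and -0.15 ± 0.15. In reaction 1 by itself 0 of the 35 genes were called, with CTSL at a log2 difference of 0.41, and in reaction 2 6 genes were higher, with CTSL at 0.98.

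TGFB2 or ERRFI1 macrophages, the largest state with 1239 cells, had 9 of 35 genes higher and 5 lower in 14 mice (edgeR's quasi-likelihood test, Benjamini-Hochberg adjustment, a comparison added after the data were seen), beside 12.5% and 10.8% of all genes. Their median log2 difference was 0.05, and -0.02 over all genes. LGMN lay at 764, 1016 and 1403 CPM against 424, 644 and 933 CPM without state markers, higher in 14 of 14 mice, at a log2 difference of 0.68 ± 0.06 (adjusted p = 2.65e-09). CTSL lay at 233, 359 and 534 CPM against 146, 247 and 386 CPM, a log2 difference of 0.58 ± 0.09 (adjusted p = 1.88e-05). CTSB, CTSD and HEXA lay at 2047, 2404 and 2945, at 648, 929.8 and 1131 and at 127, 216 and 323 CPM and differed by 0.36 ± 0.05, 0.38 ± 0.06 and 0.40 ± 0.07 on the log2 scale. The ranges overlapped for all 5 genes. TFEB, at 18.9, 26.7 and 32.6 CPM against 24.4, 35.01 and 48.5 CPM, was lower at a log2 difference of -0.39 ± 0.10 (adjusted p = 0.00455), MITF was higher at 0.28 ± 0.07 (adjusted p = 0.00447), and TFE3 differed by 0.05 ± 0.10. CTSH, IFI30, PPT1 and MAN2B1 were also lower, and ASAH1, ACP5 and GLA higher. The calls of MAN2B1 and GLA were kept in 4 of 9 alternatives each, both lost with DESeq2 and without the block, and that of TFEB was lost with DESeq2, with the stricter gate and in reaction 1. With library totals in place of TMM factors 8 genes were higher and 8 lower.

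CXCL10 macrophages, gated on the interferon-induced chemokines CXCL10 and CXCL9, had 6 of 35 genes higher and 3 lower in 14 mice (edgeR's quasi-likelihood test, Benjamini-Hochberg adjustment), beside 9% and 7% of all genes. The median log2 difference of 0.02 was close to that of all genes, -0.01. MCOLN1, the calcium channel of the lysosome membrane, lay at 5.95, 61.5 and 93.98 CPM against 55.8, 79.3 and 116 CPM and was lower in 14 of 14 mice, at a log2 difference of -0.49 ± 0.11 (adjusted p = 0.00272). SCARB2 lay at 155, 234 and 323 CPM against 132, 182 and 216 CPM, higher in 13 of 14 mice, at a log2 difference of 0.44 ± 0.07 (adjusted p = 1.45e-04). ACP5 at 5.95, 53.03 and 105 CPM against 52.6, 74.1 and 111 CPM and MITF at 146, 243 and 411 CPM against 261, 314 and 390.0 CPM were lower, at log2 differences of -0.40 ± 0.13 and -0.31 ± 0.09.

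ACP2 at 38.7, 67.7 and 129 CPM against 34.2, 51.3 and 64.04 CPM and CTSL at 168, 341 and 367 CPM against 146, 247 and 386 CPM were higher in CXCL10 macrophages, by 0.39 ± 0.13 and 0.35 ± 0.09 on the log2 scale, as were CTSZ, LGMN and CTSC by 0.29 ± 0.06, 0.28 ± 0.07 and 0.23 ± 0.07. TFEB at -0.38 ± 0.14 and TFE3 at -0.08 ± 0.16 did not pass. IFI30, whose enzyme is known as interferon-inducible, was not called. Only SCARB2 was called in both reactions by themselves. Without the mouse as a replicate block 3 genes were higher and 1 lower.

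Cycling macrophages, gated on MKI67 and TOP2A, held most lysosomal transcripts at a lower share of their UMIs. In 14 mice 23 of 35 genes tested were lower and 0 higher (edgeR's quasi-likelihood test, Benjamini-Hochberg adjustment), beside 17.7% lower and 17.8% higher among all genes, with a median log2 difference of -0.25 against -0.01 over all genes. ACP5 lay at 21.5, 42.1 and 69.1 CPM in cycling macrophages and 52.6, 74.1 and 111 CPM without state markers, a log2 difference of -0.89 ± 0.12 (adjusted p = 1.86e-06). IFI30 lay at 477, 615 and 776 CPM against 737, 964 and 1432 CPM, lower in 14 of 14 mice, at a log2 difference of -0.69 ± 0.07 (adjusted p = 1.39e-08). LIPA lay at 39.5, 54.4 and 66.02 CPM against 53.9, 69.02 and 106 CPM, a log2 difference of -0.46 ± 0.08 (adjusted p = 5.26e-05). The ranges overlapped for each.

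ACP2 at 19.1, 37.7 and 62.5 CPM against 34.2, 51.3 and 64.04 CPM, TFEB at 13.8, 26.1 and 36.2 against 24.4, 35.01 and 48.5 CPM and MITF at 163, 242 and 356 against 261, 314 and 390.0 CPM were lower in cycling macrophages, at log2 differences of -0.51 ± 0.11, -0.47 ± 0.11 and -0.43 ± 0.08, and TFE3 differed by -0.01 ± 0.11. The other 17 lower genes had log2 differences between -0.39 (GAA) and -0.17 (CD63), and LGMN, CTSL, CTSB and CTSZ were among the 12 that did not pass. In reaction 1 by itself 18 genes were lower and in reaction 2 by itself 10, with 7 in both.

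IL1A or CCL20 macrophages, gated on these inflammatory transcripts, had at least 10 cells in 4 mice only, and 0 of 35 genes were called by edgeR's quasi-likelihood test, beside 3.57% higher and 1.12% lower among all genes. At an unadjusted p under 0.05 there were 5 of the lysosomal genes, beside 1352 of all 7785 genes tested. DESeq2 called 0 lysosomal genes, with 1 at an unadjusted p under 0.05. CTSL was at 257, 608, 394 and 259 CPM in untreated mouse 2 of reaction 1, untreated mice 2 and 3 and maraviroc mouse 2 of reaction 2, against 234, 261, 282 and 306 CPM, a log2 difference of 0.54 ± 0.22 (adjusted p = 0.204). The groups overlapped. TFEB was at 14.2, 39.02, 8.95 and 5.18 CPM against 24.4, 43.9, 39.8 and 31.4 CPM, a log2 difference of -0.93 ± 0.41 (adjusted p = 0.251), and MITF and TFE3 differed by -0.30 ± 0.20 and 0.00 ± 0.38.

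Over the 11 class comparisons, 10 of which share macrophages, CTSL was the gene called higher most often, in 8 of the 10 in which it passed the filter, and was lower in none. CTSZ, LGMN and CTSD were each called higher in 6, with CTSD lower in 1. PPT1 and IFI30 were the ones called lower most often, in 5 each. MITF was higher in 5 and lower in 2, TFEB higher in 1 and lower in 4, and TFE3 higher in 1. GUSB and SMPD1 were called only in comparisons of macrophages with other lineages, GUSB in 1 and SMPD1 in 3, the 3 in which it passed the filter.

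The question of the study design was whether maraviroc altered the human immune cells of the tumor, and for the lysosomal genes no change was detected at this number of mice. In macrophages of 7 maraviroc and 7 untreated mice, 0 of 36 genes tested were called by edgeR's quasi-likelihood test with Benjamini-Hochberg adjustment, where 0% of all genes were called in either direction, and 1 gene had an unadjusted p under 0.05, beside 3.29% of all genes (1.79% higher and 1.5% lower with maraviroc). The log2 differences of the 36 genes lay between -0.28 and 0.21, with a median of -0.02 and standard errors between 0.07 and 0.16. The summed level was 12295, 13644 and 14736 CPM in untreated and 12803, 13503 and 13922 CPM in maraviroc mice (lowest, median and highest). The maraviroc values lay within the untreated range.

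LIPA was the gene with the lowest p, at 63.1, 71.1 and 96.9 CPM in untreated and 54.6, 58.8 and 68.3 CPM in maraviroc mice. All 7 maraviroc values were below the untreated median, the ranges overlapped, and the log2 difference was -0.28 ± 0.10 (edgeR adjusted p = 0.9999). CTSB lay at 1875, 2122 and 2274 CPM against 1722, 2092 and 2248 CPM with maraviroc, a log2 difference of -0.05 ± 0.09, and LGMN at 556, 751 and 1024 CPM against 592, 893 and 958 CPM, a log2 difference of 0.12 ± 0.12. The transcription factor genes MITF, TFEB and TFE3 differed by -0.02 ± 0.08, 0.11 ± 0.10 and -0.03 ± 0.09 on the log2 scale. The interaction of treatment and reaction called 0 of the 36 genes and 0% of all genes after adjustment. Before adjustment, ACP5, CTSZ, LAMP1, TFE3 and TFEB lay below 0.05. The share of all genes below that limit before adjustment is not given here, so these 5 genes cannot be read as an excess. DESeq2 called 0 of 37 lysosomal genes and 19 genes in all for this interaction.

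In monocytes 0 of 35 genes were called, beside 0% of all genes, and 1 had an unadjusted p under 0.05, beside 4.31% of all genes (2.43% higher and 1.88% lower). This gene was GAA, at 34.9, 39.9 and 53.7 CPM in untreated and 26.5, 32.4 and 43.6 CPM in maraviroc mice. The ranges overlapped, and the log2 difference was -0.36 ± 0.13 (edgeR adjusted p = 0.9999). MITF lay at 92.1, 112 and 196 CPM against 132, 145 and 244 CPM, a log2 difference of 0.22 ± 0.18, with all 7 maraviroc values above the untreated median. In lymphoid cells 0 of 35 genes were called, beside 0% of all genes, and 0 had an unadjusted p under 0.05, also by DESeq2, beside 3.64% of all genes (1.43% higher and 2.22% lower). CTSL had the largest log2 difference there, 0.56 ± 0.28, at 5.11, 16.1 and 30.7 CPM against 12.5, 21.6 and 36.2 CPM. In reactions 1 and 2, CTSL was at 36.4 and 31.8 CPM in T cells and 9.84 and 6.28 CPM in NK cells. The NK list in lymphoid cells lay at 6072, 8688 and 20861 CPM in untreated and 4169, 5844 and 16097 CPM in maraviroc mice. The T list lay at 1148, 3262 and 4054 CPM and 2042, 3121 and 3420 CPM. The part of the mix of T and NK cells was not tested.

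In conventional dendritic cells of 6 untreated and 7 maraviroc mice 0 of 34 genes were called, beside 0% of all genes, and 4 cathepsin genes had an unadjusted p under 0.05, all lower with maraviroc, beside 5.92% of all genes (3.5% higher and 2.42% lower). DESeq2 had 3 genes at that p. CTSB lay at 520.1, 736 and 945 CPM in untreated and 479.8, 579 and 664 CPM in maraviroc mice, a log2 difference of -0.35 ± 0.15 (edgeR adjusted p = 0.838). CTSD lay at 96.2, 189 and 312 CPM against 89.9, 111 and 197 CPM, a log2 difference of -0.56 ± 0.25 (edgeR adjusted p = 0.838). CTSA and CTSL differed by -0.43 ± 0.20 and -0.86 ± 0.41, with CTSL at 32.1, 84.1 and 208 CPM against 15.1, 42.1 and 86.04 CPM. The ranges overlapped for all 4 genes. The macrophage transcript SPP1 in these cells lay at 64.5, 846 and 3531 CPM in untreated and 94.6, 269.8 and 989 CPM in maraviroc mice, and the macrophage list at 1324, 1628 and 1987 CPM and 1108, 1367 and 2502 CPM, and their part in these values was not tested.

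**Figure D5:**
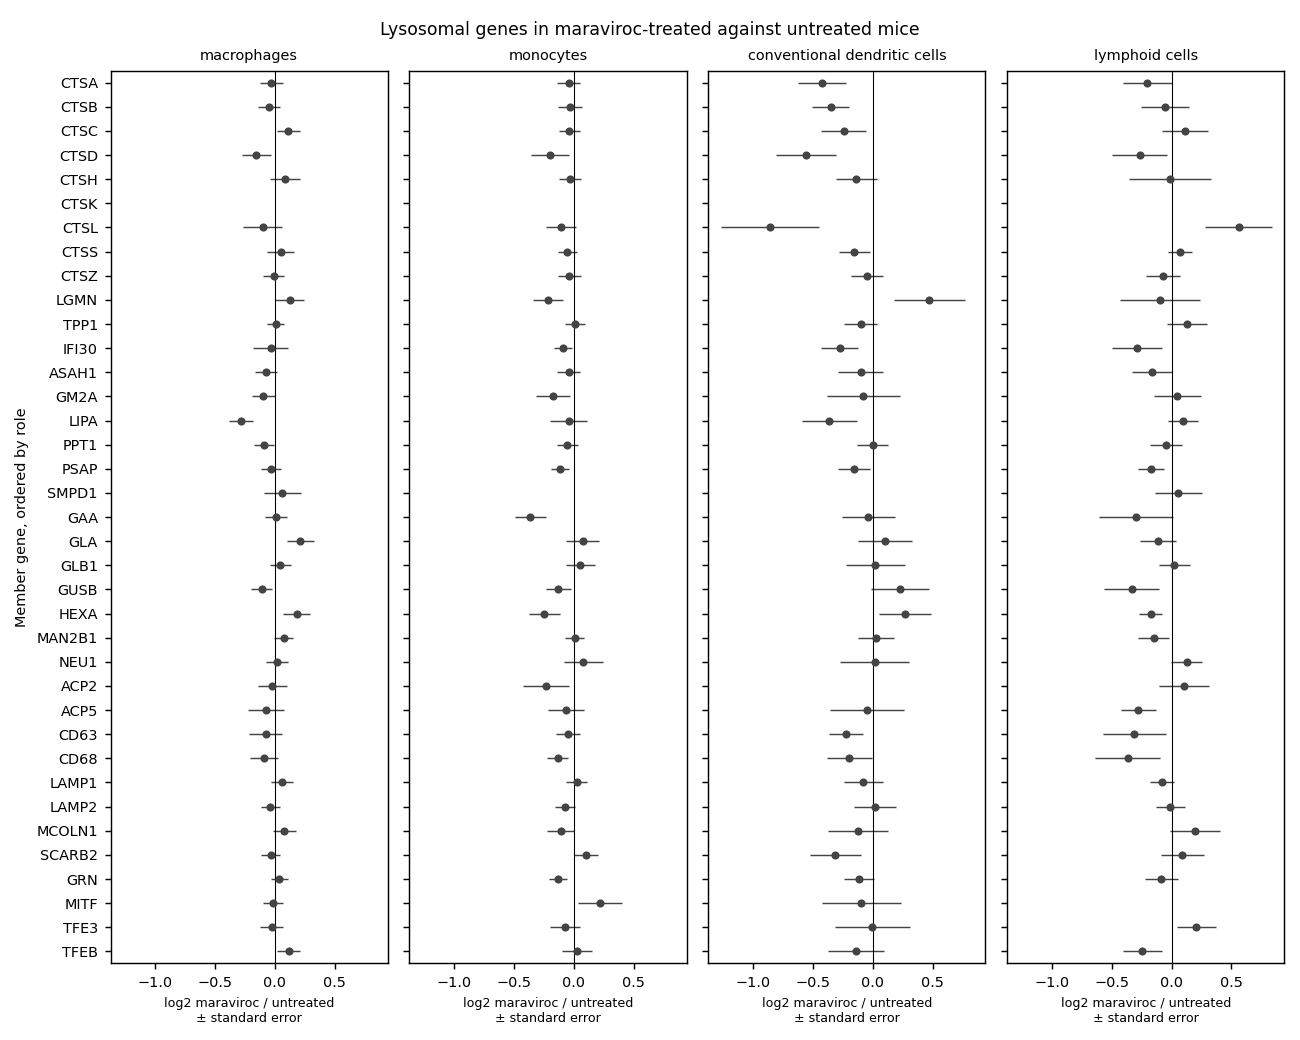
Log2 fold difference of each lysosomal gene between maraviroc and untreated mice in macrophages and monocytes (7 mice each), conventional dendritic cells (7 and 6 mice) and lymphoid cells (7 mice each), as edgeR estimates with standard errors. In macrophages 16 points lie above zero and 20 below, and in monocytes 9 above and 26 below. In dendritic cells 8 lie above and 26 below, and in lymphoid cells 13 above and 22 below. The bars are widest in dendritic cells, and no gene passed an adjusted p of 0.05.

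A list of 78 other lysosome-related genes, such as proton pump subunits, further hydrolases and inhibitors of cysteine proteases, is given for context. Between macrophages and monocytes 33 of 73 tested were higher and 19 lower (edgeR's quasi-likelihood test), beside 34.4% and 32% of all genes tested, with a median log2 difference of 0.14. PLD3, a phospholipase D family nuclease, at 1.99 ± 0.07 (adjusted p = 2.43e-16), FUCA1, the fucosidase, at 1.67 ± 0.12 (adjusted p = 2.33e-11), TPCN1, a cation channel, at 1.65 ± 0.10 (adjusted p = 1.99e-12), and GPNMB, a glycoprotein of stressed lysosomes, at 1.32 ± 0.15 (adjusted p = 3.74e-08) were higher in macrophages, and ARSG, a sulfatase, at -1.32 ± 0.11 (adjusted p = 2.30e-10) was lower. Against lymphoid cells 61 of 73 were higher and 7 lower, beside 40.6% and 41.5% of all genes tested. GPNMB at 6.10 ± 0.10, the cysteine protease inhibitor genes CSTA at 5.69 ± 0.18 and CST3 at 5.30 ± 0.22, and the transcription factor gene TFEC at 5.17 ± 0.14 were higher in macrophages, and CTSW, the cathepsin of cytotoxic lymphocytes, at -6.70 ± 0.21 was lower.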

How the data were processed

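Single-cell 3′ gene expression and hashtag libraries of 2 reactions were analysed. The authors deposited UMI counts per gene and barcode, made with Cell Ranger 9.0.1 per the labels, which also name Seurat 5.1.0 and the build GRCh38. Hashtag counts were demultiplexed with HTODemux (Seurat 5.3.0, quantile 0.99), and singlets with more than 600 and at most 6000 genes and under 12.5% mitochondrial counts were kept. Doublets within 1 mouse carry 1 hashtag and were not removed. Markers of a second class were found in 20.4% of macrophages, 23.8% of monocytes, 35.2% of conventional dendritic cells and 29.2% of lymphoid cells. Cells were classed by marker UMIs, with thresholds set after the data were seen, and raw counts were summed per mouse and class. Sums were tested with edgeR 4.0.16 in R 4.3.3 (quasi-likelihood test, TMM, filterByExpr, Benjamini-Hochberg threshold 0.05). Class comparisons had the mouse as a replicate block, since both classes came from the same animal, and treatment comparisons had none. On simulated data for macrophages against monocytes (10738 genes), 200 of 200 genes changed by 1 on the log2 scale were found, with 8 false calls. The changed genes were drawn only from genes above a minimum mean level, with the same baseline in every mouse. Low genes and smaller differences were therefore not covered. Standard errors are those of the unshrunk coefficients.

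All 37 genes are accounted for. Values are given for up to 6 called genes with the largest absolute log2 difference in each comparison, for the 3 transcription factor genes and for genes called nowhere. From the list of other lysosome-related genes they are given for the 5 with the largest difference. Genes outside this rule were named after their values were seen. The members and lists were chosen with earlier results of these data known. Alternatives were DESeq2 1.42.0, no low-count filter, no TMM, no block or the reaction as block, cells above 1000 genes, a stricter gate without cells that held markers of a second class, each reaction, each mouse left out (treatment comparisons) and, added after the data were seen, each mouse left out in class comparisons of 6 or fewer mice and no shared barcodes. Mice were separate animals, and no sequences were used.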

Additional observations from a re-analysis of the deposited data

Results flagged for a closer look

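Among 76 groups of mice tested for a value far from the others, 3 held one, and chance gives about 1 in 20. CTSL in macrophages was at 497 CPM in untreated mouse 3 of reaction 1, where the nearest untreated mouse was at 333 CPM. LIPA was at 96.9 CPM in macrophages of the same mouse, where the nearest was at 75.2 CPM. CTSS in macrophages was at 1099 CPM in maraviroc mouse 3 of reaction 2, where the nearest maraviroc mouse was at 881 CPM.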

How the results depend on the processing

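No called lysosomal gene changed direction under the alternatives that were run. Each mouse was left out in the treatment comparisons and, among the class comparisons, only in those of mature dendritic cells, LYVE1 macrophages and IL1A or CCL20 macrophages, and the other 8 were not fitted that way. For the 60 gene and comparison pairs named by rule, 545 of 593 alternative values stayed past the threshold and 48 did not. The number of called genes moved by over 1.5 times in these cases. For mature dendritic cells it was 4 with the stricter gate and 5 to 9 when 1 mouse was left out, against 9. For GLUT1 macrophages it was 5 with the stricter gate and 4 in each reaction, against 8, and for MT1G macrophages 0 in reaction 1, against 6. For CXCL10 macrophages it was 4 with no replicate block, 5 with the stricter gate, 3 in reaction 1 and 4 in reaction 2, against 9. For LYVE1 macrophages it was 7 in reaction 2, against 12, and 10 to 11 when 1 mouse was left out. For cycling macrophages it was 10 in reaction 2, against 23, and for TGFB2 or ERRFI1 macrophages 9 in each reaction, against 14. A reaction by itself holds fewer mice, and otherwise the cause was not tested. Leaving out the replicate block moved no other count by over 1.5 times. In the treatment comparisons 91 alternative fits, the reaction as a replicate block and each mouse left out among them, called 0 lysosomal genes and at most 4 genes in all. Reaction 1 by itself had too few mice for mature dendritic cells and for LYVE1 and IL1A or CCL20 macrophages and was not run. The median depth of 3020 UMIs in reaction 1 limits the low genes, CTSK and SMPD1 among them.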
